A study of Mus musculus with 64 samples.

Results

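The cytosolic ribosomal protein genes encode the protein part of the ribosome that translates messages in the cytoplasm. They were taken from the count tables by name, as every row named Rpl or Rps followed by a number, plus Rplp0, Rplp1, Rplp2 and Rpsa. Names of pseudogenes, mitochondrial ribosomal proteins (Mrpl and Mrps) and the Rps6k kinases were left out. Of 55809 rows in each table, 87 had such a name, and a row was kept where its mean count over the libraries of a comparison reached 100. This left 83 genes in the 44 libraries of the reversible-allele experiment, 35 of the small and 48 of the large subunit, 80 genes in the infant degron libraries, 78 in the adult active and 75 in the thymic degron libraries. The 22 resting libraries fitted alone also kept 83 genes, with Rpl32l (mean count 119) in place of Rps4l (97.2). The rule uses names and mean counts and no difference between groups, but it was set with earlier results of these data known.

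The data are bulk RNA-seq counts from 64 libraries in 28 groups of sorted mouse regulatory T (Treg) cells, the cells that depend on the transcription factor Foxp3, or of cells that transcribe a Foxp3 allele without making the protein. In the reversible-allele experiment (KIKO), heterozygous Foxp3-LSL/WT females carried a loxP-flanked stop in 1 Foxp3 allele, and cells that use this allele are called Treg wannabes. Cells with Cd4-CreERT2 regain Foxp3 after a single dose of 4-hydroxytamoxifen (4-OHT) and form the plusFoxp3 groups, and littermates without this Cre, which received the same dose, form the minusFoxp3 groups. Both were sorted as resting and as active cells untreated (day 0) and at days 3, 7, 14 and 28, with 2 libraries in each of the 20 groups. Cd4 is also active in T cells other than Treg wannabes, so this Cre is not specific to them. The 2 libraries of a group are described as independent biological replicates in the study. Untreated Foxp3GFP Treg cells gave 2 resting and 2 active libraries.

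In the degron experiment, every animal carried Foxp3-AID, a Foxp3 protein that can be degraded on demand, and received 5-ph-IAA for 7 days. Test animals also carried ROSA26-TIR1(F74G), which is expressed only after Cre made from the Foxp3 locus has acted, and controls had ROSA26-WT. Nascent CD73- thymic Treg cells and active Treg cells from spleen and lymph nodes came from heterozygous adult females of 6 to 10 weeks (3 TIR1 and 3 WT libraries of each), in which the Foxp3-AID cells share the host with Treg cells of the other allele. Spleen and lymph node Treg cells of infant males treated from day 1 after birth gave 4 libraries titled TIR1 and 4 titled WT. The genotype field of the infant records states the opposite of their titles, so they are named here by title only, and which of both had lost Foxp3 cannot be told from the labels. For the 12 adult degron files, the library named in the file header is that of a sample of the other genotype than the recorded one. The header name was followed, and under the recorded attachment every adult difference of TIR1 against WT given here changes sign.

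Total counts ranged from 27753211 to 34029692 in the adult degron libraries, from 33704114 to 55801009 in the infant libraries and from 35097257 to 57419138 in the reversible-allele and GFP libraries. The degron files were counted at a mapping quality of at least 30 and the other files without that limit. The alignment files named in the infant headers carry the ending of STAR output while those of the adult degron headers do not. Levels are therefore compared only within each of the 3 sets. Foxp3 mRNA was 7.27-fold to 12.1-fold higher in plusFoxp3 than in minusFoxp3 cells at days 3 to 28. It did not differ past the threshold in the degron comparisons, where the protein and not the transcript is the target. All 6 T cell markers were detected in every library. At least 1 B cell marker was detected in all 64 libraries, and the summed level of 6 such markers was 513 to 2169 CPM (counts scaled to library size) in resting and 229 to 3951 in active libraries of the reversible-allele experiment. In every active and every degron group 3 of the 6 were at or under 1 CPM, so these sums, here and below, rest on the others. The part of such transcripts in the results was not tested.

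A ribosome has a small subunit, which reads the message, and a large subunit, which joins the amino acids. Most of these proteins occur in equal number in a ribosome, and their genes are known to be expressed together. Their mRNAs typically begin with a C followed by a run of pyrimidines, the terminal oligopyrimidine (TOP) motif. Through this motif the kinase mTORC1, which responds to nutrients and growth signals, controls whether the messages are translated. Lymphocytes leaving rest are known to raise ribosome production and protein synthesis. Counts as used here give the share of counted reads assigned to each gene, which also depends on mapping and counting. The number of ribosomes and the rate of translation are not seen.

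Of the 83 genes, 59 had a window around the transcription start in the RefSeq promoter table. A C followed by at least 4 pyrimidines stood at an annotated start of 13 of the 59 (22%), against 3.01% of 27025 genes with a window. A longer tract, a C with at least 6 pyrimidines after it, began within 20 bases of the start in 34 of 59 (57.6%), against 23.6% of all. The windows of 6 genes that the results below refer to, and that begin with such a C, are shown here 5′ to 3′ from 10 bases before the start to the 20th base of the transcript. Capitals mark the pyrimidine run from the start.
Rps6 (chr4:86775585-86775614, minus strand): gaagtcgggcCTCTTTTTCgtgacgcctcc
Rps27 (chr3:90120936-90120965, minus strand): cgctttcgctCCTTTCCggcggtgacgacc
Rpl35 (chr2:38895124-38895153, minus strand): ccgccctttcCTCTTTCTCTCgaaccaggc
Rpl38 (chr11:114559396-114559425, plus strand): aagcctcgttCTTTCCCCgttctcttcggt
Rplp2 (chr7:141027554-141027583, plus strand): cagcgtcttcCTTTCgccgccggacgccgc
Rpl28 (chr7:4795954-4795983, plus strand): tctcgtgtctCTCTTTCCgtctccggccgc
The sequences are those of RefSeq, whose table is on GRCm38.p6, and were placed in GRCm39 by exact match.
In the 300-base windows, the letters TTCCGG were found on either strand in 33 of the 59 genes (55.9%) and in 16.7% of all genes. GGGCGG was found in 62.7% and 38.2%, AAGATGGC in 8.47% and 3.19%, CACGTG in 10.2% and 8.09%, and TATAAA in 10.2% and 15.7%, all counted on both strands. A match of letters is a description and not a bound site. The 87 rows of the name pattern lay on 19 chromosomes, with the highest count, 14, on chromosome 7.

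As a share of all counts, the ribosomal protein genes held 2.03% to 3.41% in the 22 resting and 1.18% to 2.74% in the 22 active libraries of the reversible-allele experiment. The active library was below the resting library of the same group and number in 22 of 22 pairs, with a ratio of active to resting of 0.456 to 0.901 (median 0.666). The highest active share, 2.74%, was that of minusFoxp3 day 7 replicate 1, whose partner replicate had 1.60%. This share lay above that of 1 of the 2 resting libraries of the same day and allele (2.54%). Several results that turn on this library are given with and without it.

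**Figure D1:**
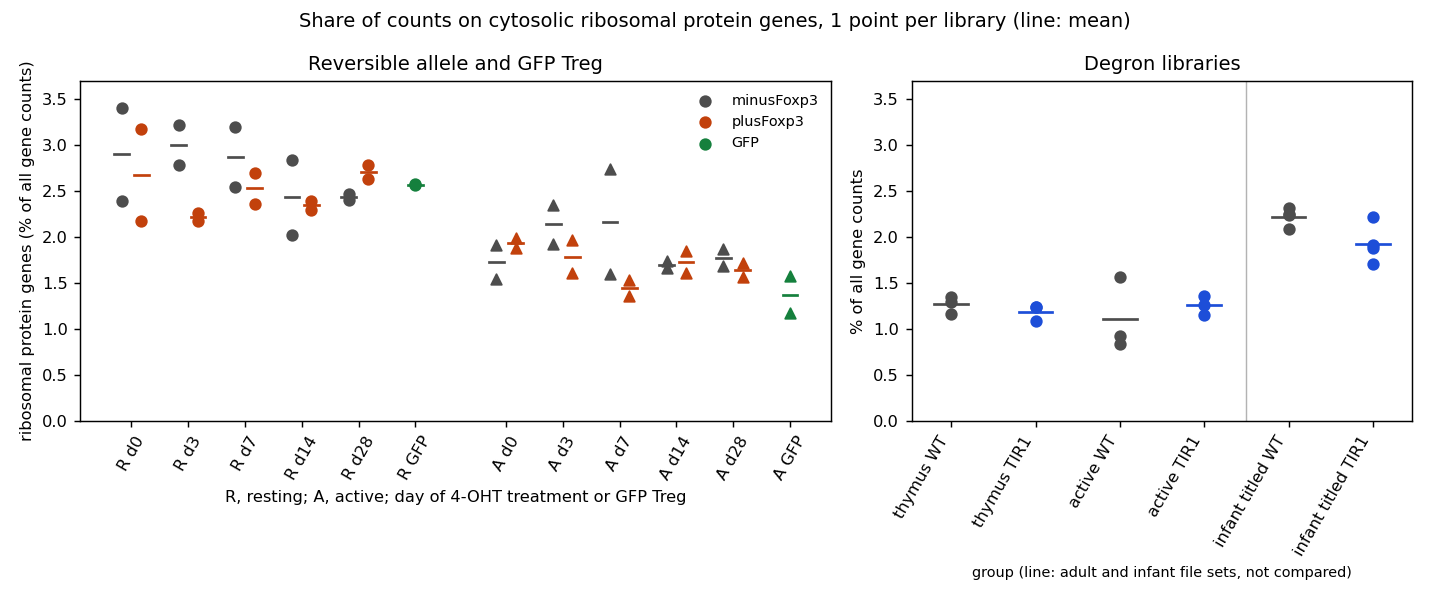
Percentage of all gene counts on the ribosomal protein genes (vertical axis), with 1 point per library and a line at each group's mean; on the left circles are resting and triangles active cells by day and allele, on the right are the degron groups. Each active library lies lower than the resting library of the same group and number, with minusFoxp3 day 7 replicate 1 (2.74%) the highest active point, and the infant libraries lie at 1.71% to 2.31%, a file set whose levels are not compared with the others.

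The comparison of active with resting cells asks how the ribosomal protein messages differ between both states. In minusFoxp3 cells over all days (10 active and 10 resting libraries), 74 of the 83 genes were lower in active cells, 2 were higher and 7 did not pass the threshold. The median log2 fold change was -0.50, a fold of 0.707, and for all 20790 genes tested it was -0.03. A gene is called at an adjusted p under 0.05 of the edgeR quasi-likelihood test over all genes, at which 37.9% of all genes were called, 18.3% lower and 19.6% higher. The decrease was shared by both subunits, with 30 of 35 small subunit genes lower (median -0.54) and 44 of 48 large subunit genes lower (median -0.48). Mitochondrial ribosomal protein genes, which build a separate ribosome, showed a median of 0.03, with 7 of 77 higher and 4 lower. Without active day 7 replicate 1, an alternative chosen after seeing the data, the median was -0.59.

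Treg wannabes that had regained Foxp3 (plusFoxp3, days 3 to 28, 8 active and 8 resting libraries) showed 74 genes lower in active cells and none higher, with a median log2 fold change of -0.55. Of all genes, 26.7% were called in this comparison and 12.7% lower. The 9 genes not called were Rps3a1, Rps3a2, Rps3a3, Rpl36al, Rpl6l, Rpl39, Rpl13a, Rps27l and Rps4l. In GFP Treg cells, with 2 libraries on each side, 40 genes were lower and none higher (median -0.89), where 3.12% of all genes were called and 1.31% lower. That count depended strongly on single libraries. With each library left out in turn, which leaves 1 library on a side, the median lay between -0.66 and -1.16. The effect of Foxp3 at day 28 was tested for a difference between active and resting cells. No gene was called (0.0818% of all genes), the median difference was -0.24 on the log2 scale, and 0 members had an unadjusted p under 0.05.

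Single libraries overlapped more than the group means. In minusFoxp3 cells every active library was below every resting library for 3 of 83 genes, against 4.30% of all genes. These genes, named after their values were seen, were Rps27, Rps13 and Rpl10, and for Rpl10 the highest active level of 78.9 CPM and the lowest resting level of 78.9 nearly met. The count of 3 includes active day 7 replicate 1 and was not recomputed without it. In plusFoxp3 cells at days 3 to 28, 48 genes were separated in this way, against 4.01% of all. In GFP Treg cells, where only 2 libraries are set against 2, 79 were separated against 25.9% of all.

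Rps20, a protein of the small subunit head, had the largest decrease in minusFoxp3 cells. Its level (CPM after TMM scaling over the 44 libraries) was 178 to 354 with a median of 264 in 10 resting libraries and 105 to 229 with a median of 146 in 10 active libraries. The ranges overlapped through minusFoxp3 day 7 replicate 1, the only active library above 200. The log2 fold change was -0.88 (SE 0.14, adjusted p = 6.00e-06), and -1.0 without that library. In plusFoxp3 cells the level was 205 to 283 (median 230) at rest and 90.8 to 151 (median 120) in active cells, with no overlap, for a log2 fold change of -0.94 (SE 0.15, adjusted p = 2.24e-05). GFP Treg cells had 242 and 255 at rest and 83.7 and 130 when active.

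Rps27, a small subunit protein with a zinc finger, had a log2 fold change of -0.86 in minusFoxp3 cells (SE 0.10, adjusted p = 7.05e-08). Its resting libraries lay between 132 and 241 CPM and its active libraries between 82.9 and 129. Rps19, whose gene is mutated in Diamond-Blackfan anaemia, was at 1068 to 1794 CPM (median 1354) at rest and 614 to 1158 (median 741) in active minusFoxp3 cells. It fell by 0.85 there (SE 0.11), by 0.85 in plusFoxp3 (SE 0.12) and by 1.21 in GFP Treg cells (SE 0.25, adjusted p = 0.00570). The minusFoxp3 ranges overlapped through active day 7 replicate 1 alone, and without that library the log2 fold change was -0.95. Rps29 was among the 3 largest decreases in plusFoxp3 cells, with 67.5 to 100.2 CPM at rest and 28.3 to 62.5 in active cells, a log2 fold change of -0.85 (SE 0.16, adjusted p = 0.000100).

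Rps6, the substrate of the S6 kinases downstream of mTORC1, changed about as much as the median gene. It was at 73.4 to 106 CPM at rest and 54.1 to 78.7 in active minusFoxp3 cells, a log2 fold change of -0.46 (SE 0.09, adjusted p = 0.000257). Rps27a, which is made as a fusion with ubiquitin, fell by 0.65 (SE 0.09), and Rps4x, an X-linked core protein, fell by 0.60 (SE 0.09). Rps26, which lines the path of the message, fell by 0.39 (SE 0.13, adjusted p = 0.0218) in minusFoxp3 and by 0.66 (SE 0.15) in plusFoxp3 cells. Rpsa, also known as the laminin receptor, had a smaller decrease of 0.31 in both (SE 0.09 and 0.10).

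On the large subunit, Rpl35, which sits near the exit of the peptide tunnel, fell by 0.69 in minusFoxp3 (SE 0.14), by 0.86 in plusFoxp3 (SE 0.16, adjusted p = 0.000121) and by 1.25 in GFP Treg cells (SE 0.32, adjusted p = 0.0287). In plusFoxp3 cells its resting libraries held 217 to 269 CPM (median 235) and its active libraries 86.4 to 166 (median 135). In GFP Treg cells it held 234 and 249 at rest against 80.6 and 123. No active library reached a resting library in these 2 settings.

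Rpl5 and Rpl11, which bind the ribosomal RNA of the central protuberance and restrain Mdm2 when ribosome assembly fails, fell by 0.50 (SE 0.11) and 0.38 (SE 0.10) in minusFoxp3 cells. Rpl10, needed for the joining of the subunits, fell by 0.52 (SE 0.07), and Rpl3, at the peptidyl transferase centre, by 0.30 (SE 0.06). Rpl22, required for the development of alpha-beta T cells, fell by 0.39 (SE 0.12), and Rpl38, known for its part in the translation of Hox messages, by 0.38 (SE 0.15, adjusted p = 0.0399). All of these were also called lower in plusFoxp3 cells, with log2 fold changes from -0.51 to -0.41.

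The stalk proteins Rplp0, Rplp1 and Rplp2 recruit translation factors. Rplp0 was at 1240 to 1773 CPM (median 1487) in resting and 1041 to 1582 (median 1115) in active minusFoxp3 libraries, and fell by 0.36 (SE 0.09, adjusted p = 0.00171). Rplp1 and Rplp2 fell by 0.50 and 0.49 (SE 0.13 for each). All 3 were lower in plusFoxp3 cells as well, by 0.49, 0.56 and 0.58.

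**Figure D2:**
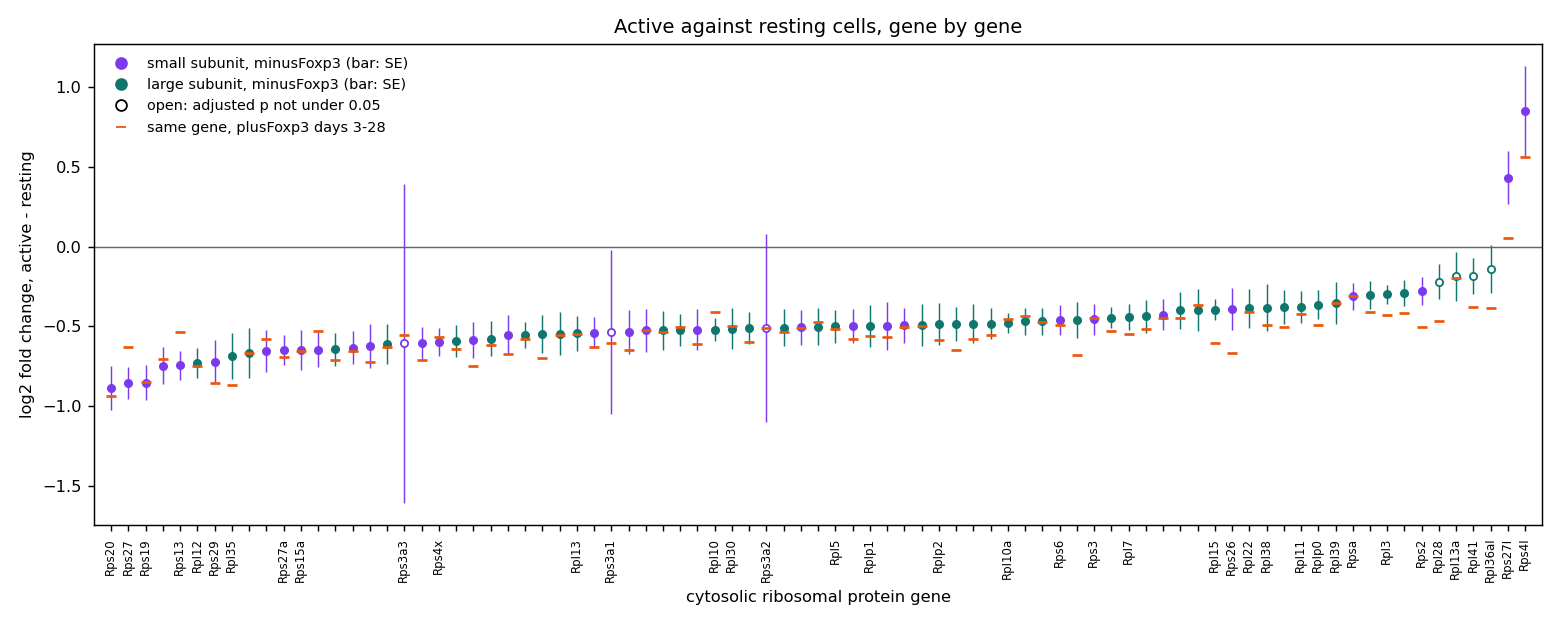
Log2 fold change of active against resting cells (vertical axis) for each of 83 genes in order, with names given for a selection; circles with SE bars are minusFoxp3 cells, coloured by subunit and open where not called, and orange dashes are plusFoxp3 cells at days 3 to 28. All but Rps27l and Rps4l lie below 0, and the wide bars belong to Rps3a1, Rps3a2 and Rps3a3.

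Both genes that were higher in active cells are paralogues of a core gene. Rps27l, a paralogue of Rps27 known as a target of p53, was higher in active minusFoxp3 cells by a log2 fold change of 0.43 (SE 0.17, adjusted p = 0.0416), with 40.9 to 107 CPM at rest and 49.4 to 159 in active cells. The groups overlapped, the highest value was again that of day 7 replicate 1, and without this library the difference was 0.27 (adjusted p = 0.170). In plusFoxp3 and GFP Treg cells it was 0.05 (SE 0.19) and -0.48 (SE 0.37), both not called. Rps4l, a paralogue of Rps4x, was at 0.675 to 3.32 CPM (median 2.36) at rest and 1.18 to 9.83 (median 4.08) in active minusFoxp3 cells, with a log2 fold change of 0.85 (SE 0.28, adjusted p = 0.0184). It was at 0.336 and 0.754 CPM in resting and 2.20 and 2.75 in active GFP Treg cells (log2 fold change 2.18, SE 0.68, adjusted p = 0.0779). Both calls in minusFoxp3 cells were lost when only the libraries compared were fitted (adjusted p = 0.115 for Rps27l and 0.0670 for Rps4l). With a mean of 136 counts Rps4l lay just above the minimum of 100, followed by Rpl24 (277), and just below it were Rpl32l (94.5) and Rpl39l (23.9).

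Besides the 3 Rps3a genes, Rpl28, Rpl13a, Rpl41 and Rpl36al were not called in minusFoxp3 cells, with log2 fold changes of -0.22 (SE 0.11), -0.18 (SE 0.15), -0.18 (SE 0.11) and -0.14 (SE 0.15). Rpl28 and Rpl41, like Rpl6l, Rpl39 and Rps28 elsewhere, are named after their values were seen. They passed in plusFoxp3 cells, at -0.47 (SE 0.12) and -0.38 (SE 0.13). Rpl13a, which can leave the ribosome and silence inflammatory messages in myeloid cells, was at 27.3 to 58.3 CPM at rest and 23.3 to 65.9 in active minusFoxp3 cells. The testis and muscle paralogues Rpl10l and Rpl3l had mean counts of 0.932 and 7.07 in the 44 libraries and were not tested as members.

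**Figure D3:**
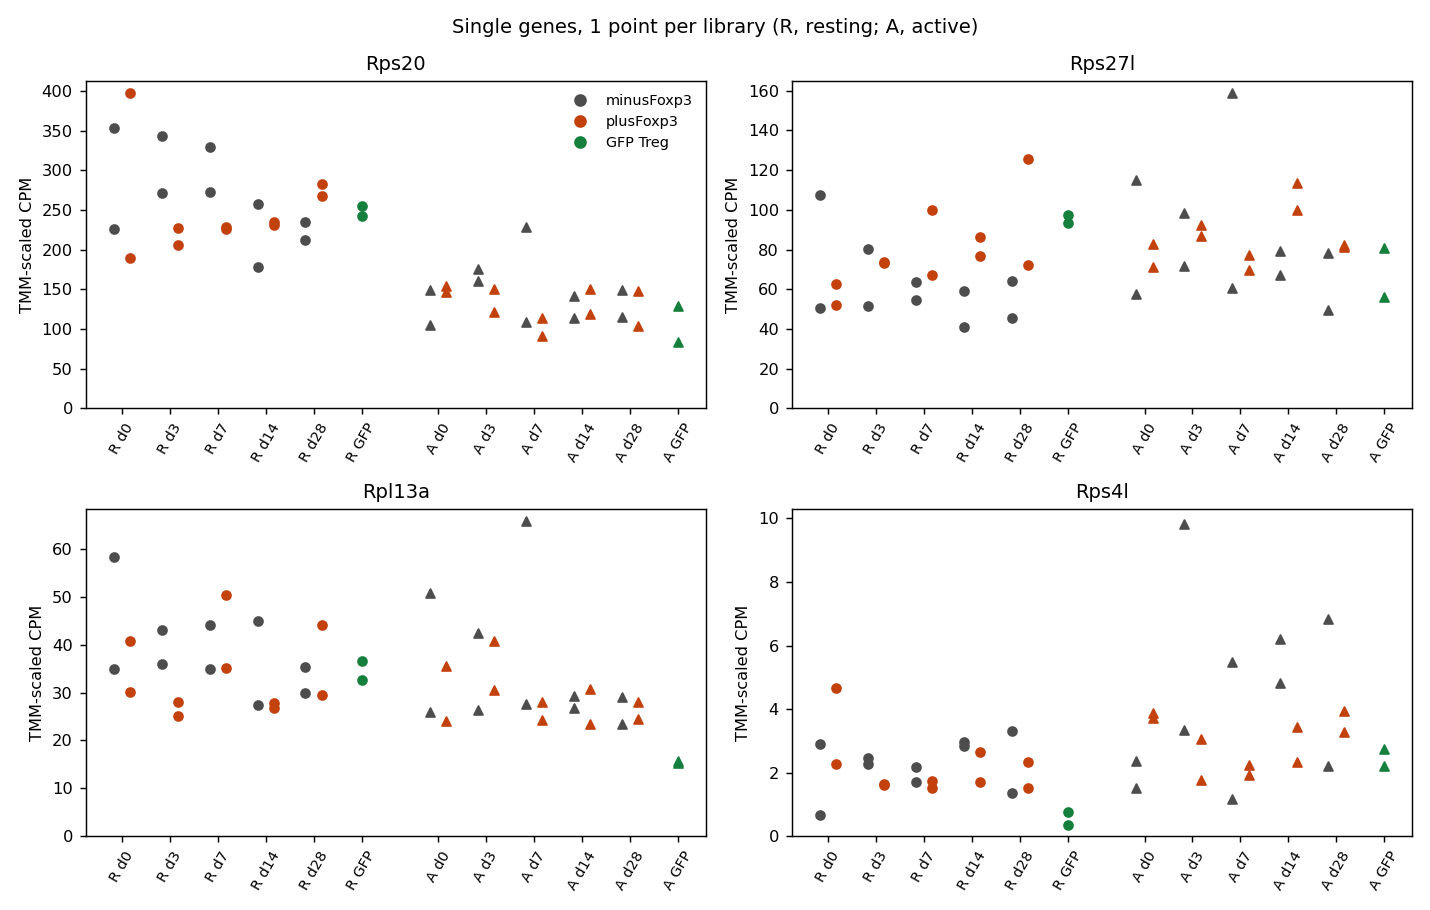
TMM-scaled CPM (vertical axis) of Rps20, Rps27l, Rpl13a and Rps4l, with 1 point per library by state and day (R, resting, circles; A, active, triangles). Rps20 is lower in active libraries, Rps27l and Rps4l overlap between states, and both active GFP Treg libraries hold the lowest Rpl13a values (15.4 and 15.7).

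Genes with and without a C and 4 pyrimidines, or with and without TTCCGG, had close medians. The other features above were not compared. The first split relies on the annotated start, so a gene counted as without the run may still carry the TOP motif. It therefore cannot decide whether the motif matters. The 13 genes with a C and 4 pyrimidines at a start had median log2 fold changes of -0.50, -0.58 and -0.94 in minusFoxp3, plusFoxp3 and GFP Treg cells, and the other 46 genes with a window had -0.49, -0.52 and -0.86. Rpl35, Rps27 and Rpl28, printed above, ranged from -0.86 to -0.22 in minusFoxp3 cells. For the 23 genes with TTCCGG in the 100 bases around the start the minusFoxp3 median was also -0.50, against -0.49 for the 36 without it. Rps27l is 1 of these 23 genes and moved in the other direction in minusFoxp3 cells.

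Rps3a1 and its copies were a special case. Rps3a1 lies on chromosome 3 at chr3:86045247-86050009 (GRCm39, minus strand), and Rps3a2 on chromosome 14 (chr14:88360453-88361244, minus strand) and Rps3a3 on chromosome 13 (chr13:108807137-108807931, plus strand) are copies with a single exon. They are 99.5% and 98.9% identical to the Rps3a1 transcript over 792 and 795 bases, with 4 and 9 differing bases. The following 30 bases, positions 772 to 801 of the Rps3a1 transcript, hold 3 of the differing positions, shown in capitals.
Rps3a1: aaaagtAaaaatgctgaagaaAcccaagtT
Rps3a2: aaaagtTaaaatgctgaagaaAcccaagtC
Rps3a3: aaaagtAaaaatgctgaagaaGcccaagtT
These letters are those of the GENCODE transcripts.
Of the counts of the 3 copies, 99.5% to 99.9% were assigned to Rps3a1 in the 20 degron libraries, which were counted at a mapping quality of at least 30. In the reversible-allele and GFP libraries the share was 9.17% to 97.8%. In the 24 minusFoxp3 and GFP libraries it took 3 levels, 9.17% to 10.5% in 6 libraries, 54.3% to 58.4% in 8 and 97.2% to 97.8% in 10, with none in between. The 20 plusFoxp3 libraries had 35.3% to 82.6%.

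Libraries of 1 group could differ widely, by over 10 points in 18 of 22 groups and by up to 88.3 points. A resting library and the active library of the same group and number differed by at most 1.64 points in the 12 minusFoxp3 and GFP pairs, by at most 11.1 in all 22 pairs, and by under 3 points in 19 of them. Resting minusFoxp3 day 0 replicate 1, for example, had 52297 counts on Rps3a1, 864 on Rps3a2 and 299 on Rps3a3. Replicate 2 had 3319, 7962 and 22517. The source of these levels was not tested. The split leaves the 3 genes with large errors (SE 0.51, 0.59 and 1.00 in minusFoxp3 cells), and no member of this trio was called in any comparison. Summed, the copies held 656 to 1102 CPM in resting and 433 to 809 in active libraries. The sum, an alternative chosen after seeing the data, fell in active cells by 0.56 on the log2 scale in minusFoxp3 (SE 0.09, adjusted p = 1.62e-05), by 0.59 in plusFoxp3 (SE 0.10, adjusted p = 5.85e-05) and by 0.79 in GFP Treg cells (SE 0.21, adjusted p = 0.0294).

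**Figure D4:**
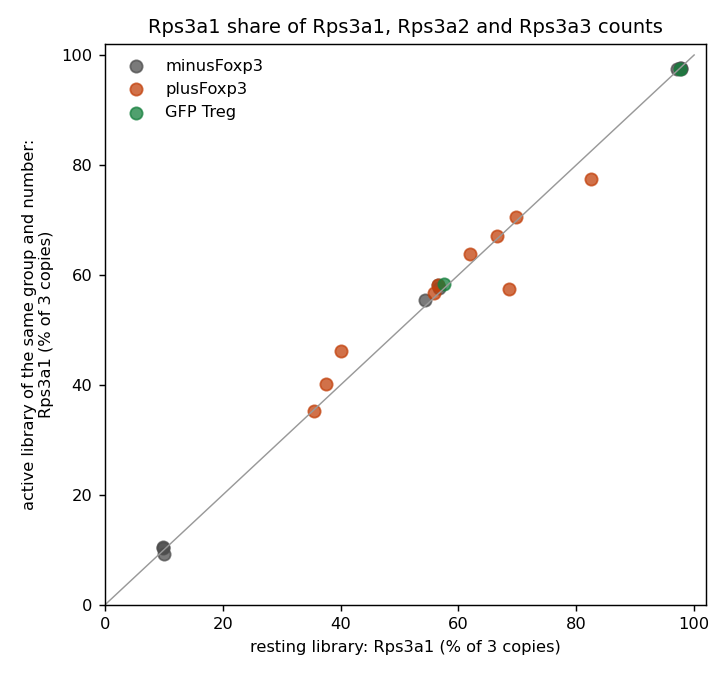
Share of the counts of the 3 Rps3a copies that was assigned to Rps3a1, in percent, in each resting library (horizontal axis) and in the active library of the same group and number (vertical axis), with the line of equality. The 22 points lie along the line, and minusFoxp3 and GFP points form 3 clusters, at 9.17% to 10.5%, 54.3% to 58.4% and 97.2% to 97.8%.

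Restoring Foxp3 is the comparison at the centre of the reversible-allele experiment, plusFoxp3 against minusFoxp3 at each day. No ribosomal protein gene was called at any day in resting or active cells. In resting cells the median log2 fold changes at days 0, 3, 7, 14 and 28 were -0.12, -0.37, -0.19, 0.06 and 0.18, where 0.00487%, 0.0487%, 0.0585%, 0.268% and 0.945% of all genes were called. In active cells they were 0.15, -0.16, -0.59, 0.08 and -0.03, with 0.00481%, 0.274%, 0.568%, 0.732% and 1.85% of all genes called. At an unadjusted p under 0.05, 5, 12, 1, 1 and 2 of 83 members passed in resting cells at these days, against 10.8%, 11%, 5.71%, 8.87% and 8.9% of all genes. In active cells 0, 1, 55, 1 and 1 passed, against 4.58%, 7.4%, 13%, 10.2% and 11%. Of these 10 comparisons, DESeq2 called members in active cells at day 7, where it called 5 of 83 and 2.32% of all genes. The median thus changed sign with the day, and in active cells its size before treatment (0.15) was close to that at day 3. The genes with the smallest unadjusted p in resting cells were Rpl7 at day 0 (-0.75, SE 0.21), Rpl10a at day 3 (-0.41, SE 0.15), Rps27 at day 7 (-0.51, SE 0.18), Rpl10 at day 14 (-0.52, SE 0.17) and Rpl39 at day 28 (0.54, SE 0.21), none of them called. In active cells they were Rpl13 at day 0 (0.39, SE 0.22), Rps4l at day 3 (-1.45, SE 0.64), Rpl12 at day 7 (-0.78, SE 0.20) and Rpl3 at days 14 and 28 (-0.31 and -0.38, SE 0.15 for both), again not called.

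Day 7 of active cells held the lowest median. At an unadjusted p under 0.05, 55 of 83 genes passed, against 13% of all genes, and 82 of 83 log2 fold changes were negative, but the smallest adjusted p was 0.102. Rpl12, a protein of the stalk base, had this value. It was at 66.0 and 46.4 CPM in the minusFoxp3 libraries and at 33.6 and 31.7 in the plusFoxp3 libraries. Rplp0 was at 1568 and 1084 against 972 and 880. The first minusFoxp3 replicate was the higher of both in each case. Without it the median was -0.11 with no call, and without replicate 2 the median was -0.97 and 68 genes were called lower, against 4.97% of all genes, so this result rests on 1 library. Mitochondrial ribosomal protein genes had a median of -0.40 in the same comparison, with 0 of 77 called. The summed level of 6 B cell markers was 1242 and 1255 CPM in the plusFoxp3 and 229 and 336 in the minusFoxp3 libraries, and its part in the result was not tested.

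Within minusFoxp3 cells, days 3 to 28 were also set against day 0, as the littermates received 4-OHT without regaining Foxp3. No gene was called in resting or active cells (0% of all genes in either), with medians of -0.15 and 0.17. At an unadjusted p under 0.05, 0 and 1 members passed, against 3.03% and 1.96% of all genes, and DESeq2 called 0. The smallest unadjusted p belonged to Rpl30 at rest (-0.31, SE 0.16) and to Rps4l in active cells (1.32, SE 0.55).

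GFP Treg cells, which always had Foxp3, were compared with day 0 minusFoxp3 cells and with day 28 plusFoxp3 cells. These comparisons share the GFP libraries. Resting cells had no called gene in either (2.91% and 0.0341% of all genes called), with medians of -0.16 and -0.08. At an unadjusted p under 0.05, 1 and 0 members passed, against 12.5% and 3.96% of all genes, and DESeq2 called 0 in both. The first median was 0.11 without day 0 minusFoxp3 replicate 1. Rpl10 (-0.51, SE 0.17, adjusted p = 0.162) and Rpl15 (-0.23, SE 0.14, adjusted p = 1) had the smallest p. Active GFP Treg cells had 1 called gene against day 0 minusFoxp3, Rpl13a, where 10% of all genes were called and 4.79% lower, and none against day 28 plusFoxp3 (2.01% of all genes called). The medians were -0.27 and -0.26, and 7 and 0 members had an unadjusted p under 0.05, against 19.8% and 11.2% of all genes. DESeq2 called 2 and 0, against 12.6% and 3.94%. With 1 library left out the first median ranged from -0.53 to -0.058 and the second from -0.54 to -0.026. The summed level of 6 B cell markers was 3794 and 3951 CPM in the active GFP Treg libraries and 325 and 331 in the active day 0 minusFoxp3 libraries, and its part in these differences was not tested.

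Rpl13a was at 15.5 and 15.9 CPM in the active GFP Treg libraries and at 50.6 and 25.7 in the active day 0 minusFoxp3 libraries (scaled over the 22 active libraries). Both GFP values were below both others, while the minusFoxp3 pair itself differed widely. The log2 fold change was -1.28 (SE 0.37, adjusted p = 0.0359). It was -0.74 (adjusted p = 0.383) without minusFoxp3 replicate 1, and the call was lost without either GFP library as well (adjusted p = 0.165 and 0.160) and when only the libraries compared were fitted (0.0746). Against day 28 plusFoxp3 it was -0.74 (SE 0.37, adjusted p = 0.484). In resting GFP Treg cells it was at 32.6 and 36.5, within the range of the other resting libraries (scaled over 44 libraries).

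Loss of Foxp3 protein was tested in the degron libraries. In thymic nascent Treg cells no gene of 75 was called (0% of all genes), the median log2 fold change of TIR1 against WT was -0.12, and 54 of 75 were negative. At an unadjusted p under 0.05, 2 members passed, against 7.37% of all genes, and DESeq2 called 0. Rps3, a small subunit protein that also has DNA repair activity, had the smallest p at -0.16 (SE 0.06, adjusted p = 0.666). Its WT libraries held 904, 859 and 945 CPM and its TIR1 libraries 756, 848 and 826. In adult active Treg cells no gene of 78 was called (0% of all genes), with a median of 0.14 and 63 of 78 positive. No member had an unadjusted p under 0.05, against 4.62% of all genes, and DESeq2 called 0. Rps4l had the smallest p there at -0.73 (SE 0.36, adjusted p = 1.00), with 18.95, 17.8 and 15.7 CPM in WT and 6.00, 12.2 and 13.5 in TIR1 libraries. WT replicate 1 of this group had a ribosomal protein share of 1.57% against 0.928% and 0.839% in the others, and without it the median was 0.50, still with no call. Without WT replicate 3 the median was -0.043, so its sign depends on single libraries.

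Infant Treg cells showed a shift of nearly all members in 1 direction, below the threshold for each single gene. In libraries titled TIR1, 75 of 80 log2 fold changes were below 0, the median was -0.25 and 48 had an unadjusted p under 0.05, against 17.4% of all genes. None was called, where 0.0185% of all genes were, and the smallest adjusted p was 0.0918. The share of counts was 1.88%, 1.71%, 1.91% and 2.22% in the titled TIR1 and 2.31%, 2.25%, 2.25% and 2.09% in the titled WT libraries. The groups overlapped through titled TIR1 replicate 4 and titled WT replicate 4.

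Rps15a had the smallest adjusted p. Its libraries held 129, 87.2, 108 and 118 CPM in the titled TIR1 and 151, 160, 189 and 142 in the titled WT group, with no overlap, and its log2 fold change was -0.54 (SE 0.12). For 6 of 80 genes every titled TIR1 library lay below every titled WT library, against 3.79% of all genes. With DESeq2, 13 genes were called lower (3.18% of all genes), among them Rps15a, Rps28 and Rpl38. Without titled WT replicate 4, 10 were called lower by edgeR (4.44% of all). Rplp0 held 983, 979.6, 1038 and 1097 CPM in the titled TIR1 and 1011, 1029.9, 1028 and 1026 in the titled WT libraries, which overlapped. Proliferation markers moved in the other direction. All 8 had positive log2 fold changes (median 0.88, 8 with an unadjusted p under 0.05, none called), and their summed level was 1154 to 1639 CPM in the titled TIR1 and 569 to 1129 in the titled WT libraries. Summed B cell markers were at 345 to 447 CPM in the titled TIR1 and 282 to 346 in the titled WT libraries, and active-state markers at 586 to 797 and 241 to 617. The part of these lists in the shift was not tested.

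Thymic and active Treg cells of the adult WT controls were compared with each other. No gene of 77 was called, where 15.8% of all genes were, and the median was 0.10. At an unadjusted p under 0.05, 4 members passed, against 29.8% of all genes. Rpsa had the smallest p at -0.60 (SE 0.18, adjusted p = 0.0592), with 133, 137 and 137 CPM in the thymic and 260, 191 and 165 in the active libraries. Rps4l, named after its values were seen, held 0.514, 0 and 2.7 CPM in the thymic and 19.3, 18.1 and 16.0 in the active libraries, with no overlap, a log2 fold change of -4.05 (SE 1.25, adjusted p = 0.0650). DESeq2 called these 2 genes, Rps4l at -4.06 (adjusted p = 0.00181) and Rpsa at -0.60 (adjusted p = 0.0134), and 24.4% of all genes. Summed B cell markers were at 178 to 192 CPM in the thymic and 1088 to 1502 in the active libraries, and their part was not tested. Without active WT replicate 1, 24 genes were called higher in the thymic cells, against 7.96% of all, and the median was 0.45. Tissue and state cannot be told apart here, and the comparison was not recomputed under the recorded attachment.

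Levels per kilobase of exon spanned a wide range among the genes. In the 44 libraries the mean CPM per kilobase ran from 2.11 (Rps4l) to 820 (Rpl32, SD 238 over libraries) with a median of 82.9. Rplp1 (791), Rpl4 (785) and Rplp0 (781) were next. The infant libraries had Rplp0 (617), Rpl4 (613), Rpl32 (537), Rps3a1 (517) and Rpl36 (509) at the top, and among the highest of the adult degron libraries were Rpl32 (711), Rpl4 (680), Rplp0 (641) and Rplp1 (460). The lowest of the adult degron set, Rpl5 (1.83), and of the infant set, Rps10 (2.06), are core proteins. Rpl5 held 42.6 in the infant libraries, and the part of mapping and counting in such values was not tested. Rows with pseudogene names took 0.00895% to 0.0154% of counts in the adult degron, 0.0191% to 0.0284% in the infant and 0.107% to 0.340% in the other libraries, so that counts of genes with near-identical copies are uncertain in each setting.

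Other genes of the translation apparatus were read from lists. In active minusFoxp3 cells, 14 of 24 further genes with TOP messages or close to them were lower and none higher, with a median of -0.26. Snhg1 and Snhg8, hosts of small nucleolar RNAs, fell by 0.81 (SE 0.18) and 0.74 (SE 0.13). Ribosome biogenesis factors had 7 of 30 lower and 1 higher (median -0.02), with Gnl3 at -0.39, Nop56 at -0.39 and Tsr1 at 0.28. For RNA polymerase I, which makes ribosomal RNA, 3 of 14 subunits and factors were lower, led by Taf1d (-0.44) and Taf1a (-0.35). Of all genes, 18.3% were called lower and 19.6% higher in this comparison. The biogenesis and polymerase I counts of lower genes were near that share. Initiation and elongation factors without a TOP assignment had 1 of 25 lower, Eif1 (-0.43), and a median of 0.01.

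In plusFoxp3 cells, 14 of 24 further TOP genes and 19 of 30 biogenesis factors were lower in active cells, against 12.7% of all genes. The biogenesis median was -0.36, led by Npm1 (-0.61, SE 0.10) and Dkc1 (-0.61, SE 0.09). The polymerase I list had 3 of 14 lower (Polr1b at -0.61 and Polr1e at -0.33 foremost), and the initiation and elongation list 6 of 25 (Eif5a at -0.41 and Eif2s2 at -0.32). In GFP Treg cells, 4 of 24 TOP genes were lower, with Eef1b2 at -0.91 and Rack1 at -0.76. Of 30 biogenesis factors 1 was lower, Npm1 at -0.77, and of all genes 1.31% were.

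Regulators moved in both directions. Eif4ebp1, the repressor of cap-dependent initiation that mTORC1 inactivates, was higher in active cells by 1.12 (SE 0.15) in minusFoxp3 and 1.07 (SE 0.17) in plusFoxp3 cells. Eef2k, the kinase that slows elongation, had log2 fold changes of -2.78 (SE 0.22) and -2.0 (SE 0.24). Zfp36l2, an mRNA decay factor, had -1.03 in minusFoxp3 cells (SE 0.15) and Akt1 was higher by 0.43. Myc, a driver of ribosome production, had log2 fold changes of -0.98 (SE 0.08) in plusFoxp3 and -0.80 (SE 0.16) in GFP Treg cells for active against resting, and of -0.77 (SE 0.14, adjusted p = 0.0115) for active plusFoxp3 against minusFoxp3 cells at day 14. Mxd4, a relative of the Myc antagonists, was higher by 0.89 (SE 0.21) in active plusFoxp3 cells at day 28. In active GFP Treg against day 0 minusFoxp3 cells, Eef2k was higher by 3.63 (SE 0.64) and Mxd4 by 0.82, while Eif4ebp1 (-1.36) and Eef1e1 (-0.74) were lower. In thymic against active WT Treg cells, Eif4a2 (0.63), Taf1d (0.61), Mxd4 (0.76) and Myc (0.50) were higher, and Eif4ebp1 (-1.55), Noc2l (-0.77), Eif2s1 (-0.50) and Eif6 (-0.50) lower. In the infant comparison none of the 5 lists held a called gene, and their medians lay between -0.12 and -0.02.

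Of the markers of state, 6 of 6 resting markers were lower and 5 of 6 active markers higher in active minusFoxp3 cells. Proliferation markers were higher in active minusFoxp3 cells (7 of 8, median 0.98) while in active plusFoxp3 cells 2 of 8 were lower (median -0.35) and in GFP Treg cells none was called. Their summed level was 362 to 814 CPM in resting and 366 to 932 in active libraries. Of 6 B cell markers, 2 were lower in active minusFoxp3 cells, 1 was higher and 1 lower in plusFoxp3 cells, and 1 was higher in GFP Treg cells. Their summed level in GFP Treg cells was 2157 and 2169 CPM at rest and 3794 and 3951 when active, with no overlap. In bulk samples a change in the cells that make up a library and a change of RNA per cell cannot be told apart, and the part of either in the state difference was not tested.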

How the data were processed

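RNA was measured by bulk RNA-seq in 64 libraries (SMART-Seq v4, paired reads, no strand). Per the file headers, the authors made the deposited counts with featureCounts 2.0.3 on GENCODE gene models of mm39, whole read pairs per gene. The 20 degron files also required primary alignments of mapping quality 30 or more, which the 44 others did not, and which bears on genes with near-identical copies. The aligner is STAR in the study's methods and Bowtie2 in the labels, and only the infant headers name files with the ending of STAR output. Total counts per library are given in the report. Samples were grouped by their labels, and adult degron files by the library name in the header.

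The counts were tested as deposited with edgeR 4.0.16 (R 4.3.3): genes averaging 10 counts or more in the fitted libraries, TMM scaling, robust quasi-likelihood F test, Benjamini-Hochberg adjustment over all genes tested, threshold 0.05. Resting and active libraries were fitted together for comparisons of state (44 libraries) and apart for those of Foxp3 (22 each). The SE was the log2 fold change over the square root of F. CPM are TMM-scaled without a prior. Scripts were tested on simulated data. Alternatives were DESeq2 1.42.0, other size factors, no filter, TMM without the members, only the libraries compared, a replicate block, the recorded attachment, and each library left out. Active against resting in minusFoxp3 and in plusFoxp3 cells was not refitted with each library left out. For minusFoxp3 only active day 7 replicate 1 was left out. The members and gene lists were chosen with earlier results of these data known. Members named are those fixed by role, up to 3 called ones per direction with the largest change in a comparison (otherwise the one of smallest p), the 5 highest per kilobase, the 2 nearest to the count minimum on either side, and up to 2 called genes per list and direction. A result that this rule would name is not reported here. No 2 libraries of a group were alike within sampling noise (lowest chi-square per degree of freedom 17.3 over 46 pairs).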

Additional observations from a re-analysis of the deposited data

Results flagged for a closer look

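Rpl13a in the infant libraries titled WT held 18.0 CPM in replicate 2 and 19.7 to 19.8 in the 3 others, so that this library lay far from the rest relative to the range of the group. Of 44 sets of 4 values examined in this way it was the only one. Chance gives about 1 in 20, so 1 of 44 is no more than chance would give.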

How the results depend on the processing

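With a library left out in turn, the median log2 fold change of the members ranged from -0.043 to 0.50 for adult active TIR1 against WT, -0.10 to 0.45 for thymic against active WT, -0.38 to -0.12 for the Foxp3 effect by state at day 28, -0.53 to -0.058 for active GFP Treg against day 0 minusFoxp3, -0.42 to 0.15 for resting plusFoxp3 against minusFoxp3 at day 0 (0.10 without plusFoxp3 replicate 2), -0.13 to 0.37 at day 14, -0.97 to -0.11 in active cells at day 7, -0.32 to 0.11 for resting GFP Treg against day 0 minusFoxp3, -0.54 to -0.026 for active GFP Treg against day 28 plusFoxp3, -0.33 to 0.12 for later days against day 0 in resting minusFoxp3 cells (Rpl30 -0.61 to 0.13, the latter without day 0 replicate 1) and -1.16 to -0.66 for active against resting GFP Treg cells. The members called ranged from 0 to 10 in infant cells, 0 to 2 at resting day 0, 0 to 68 at active day 7, 0 to 1 in active GFP Treg against day 0, 0 to 48 in active against resting GFP Treg and 0 to 24 in thymic against active WT cells. Of all genes, 4.44% were called lower in the infant refit with 10 members called (without titled WT replicate 4). In the thymic against active WT refit with 24 (without active WT replicate 1), 7.96% were called higher. The share at active day 7 is given above. For the other refits it is not given, among them resting day 0 and GFP Treg states. Their counts cannot separate the members from a general change in calls. An arm left with 1 library was assumed to vary like the other groups. Under the recorded attachment of the adult files the thymic median was 0.12, Rps3 was at 0.16 and Rps4l at 0.73. Without the count filter the members called were 1 in infant cells, 1, 2, 3, 1 and 1 in resting cells at days 0 to 28, 3, 13 and 1 in active cells at days 3, 7 and 14, 2 and 3 for resting and active GFP Treg against day 0, 1 and 2 against day 28, and 1 for thymic against active WT. All genes called under this setting were 0.505% in infant cells, 0.718% to 1.8% in resting and 0.685% to 2.39% in active plusFoxp3 against minusFoxp3, 0.667% to 6.01% in the GFP Treg comparisons with other cells and 9.92% for thymic against active WT. DESeq2 called 13 in infant cells (6.83% of all genes), 5 at active day 7 (2.32%), 2 in active GFP Treg against day 0 (12.6%), 68 in active against resting GFP Treg (5.64%) and 2 in thymic against active WT (24.4%). RLE size factors gave 2 in active GFP Treg against day 0 (9.83%). Fitting only the libraries compared gave 0 there (7.29%) and 24 for GFP Treg states (2.42%). With a replicate block, GFP Treg states had 72 members called (6.03% of all genes), minusFoxp3 and plusFoxp3 states 79 each (42.4% and 31.3%), and resting and active GFP Treg against day 0 had 1 and 2 (3.71% and 10.8%). The deviations of same-numbered resting and active libraries correlated at -0.04 to 0.45 over the 11 groups, under 0.1 in 2 of them. The main fits therefore did not use the number as a pairing. The Rps3a1 shares of same-numbered libraries were close, as given above, and whether such libraries share an animal was not tested. Why the values moved under these alternatives was not tested. Under all alternatives together, 250 medians moved by less than 1 SD between replicates, and some of these changed sign. Adult active TIR1 against WT, at -0.043 with 1 library left out, is an example. Of the medians that moved by more, 6 kept and 5 changed their sign. For members called, 248 counts stayed within 1.5 times that reported while 37 did not. Of the values of named members 501 kept direction and call, 34 lost and 11 gained the call, and 3 changed sign. Low counts limit Rps4l, close to the minimum of 100.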
